A study of Mus musculus with 4 samples.

Results

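Levels of 10 genes of matricellular and elastic matrix glycoproteins were examined in induced hepatocyte-like (iHep) cells: Tnc, Thbs1, Thbs2, Sparc, Postn, Fn1, Fbln1, Fbln2, Fbn1 and Eln. They were chosen by name, with earlier results of these data known. All 10 had probes on the array, 20 probes of 41174 in all. Of these 10 genes, 5 (Tnc, Thbs2, Sparc, Fn1 and Fbln2) passed the filter on dim probes and stood among the 16451 genes tested. The cells were of C57BL/6 mice and were derived from cells that the labels call MDFs, an abbreviation not spelled out there. They were grown in 3D culture (2 arrays) or in 2D culture (2 arrays), and each of 2 independent experiments, iHep-1 and iHep-2, gave 1 array of each culture. Both 2D titles also have a plus sign, absent from the 3D titles. The labels do not explain it, and what it marks cannot be told apart from culture. Nor do they name the factors used to induce the cells or the age of the source animals.

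The extracellular matrix holds, beside collagens, glycoproteins of different kinds. Fibronectin (Fn1) is an adhesive glycoprotein that integrins assemble into fibrils, and hepatocytes also secrete it into plasma. Matricellular proteins (Tnc, Thbs1, Thbs2, Sparc, Postn) bind matrix and receptors and modulate adhesion more than they build structure; many are made by fibroblasts and by activated stellate cells of injured liver. Elastic fibres have a core of elastin (Eln) on a scaffold of fibrillin microfibrils (Fbn1), and fibulins (Fbln1, Fbln2) link fibres and basement membranes.

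Each value below is the signal of a 60-base probe. Of the 20 probes, 6 cover 181 or more bases of the genome (build mm9) and were taken to cross an exon junction. They are shown because a probe of this kind matches spliced RNA, and because 3 of them are the tested probes of Fn1, Thbs2 and Sparc. All letters are as in the array files, 5′ to 3′.
Fn1, the probe spotted 10 times (chr1:71637422-71639659, minus strand): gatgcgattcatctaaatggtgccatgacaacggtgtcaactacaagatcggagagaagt
Fn1, a probe further upstream (chr1:71673888-71674646, minus strand): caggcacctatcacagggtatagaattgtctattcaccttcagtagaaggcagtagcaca
Thbs2 (chr17:14804526-14805789, minus strand): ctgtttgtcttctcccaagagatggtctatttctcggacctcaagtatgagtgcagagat
Sparc (chr11:55209449-55212106, minus strand): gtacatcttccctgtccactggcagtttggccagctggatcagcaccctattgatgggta
Tnc, a probe not well above background (chr4:63674248-63675011, minus strand): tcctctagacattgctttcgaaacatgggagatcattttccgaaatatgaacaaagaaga
Thbs1 (chr2:117946712-117946892, plus strand): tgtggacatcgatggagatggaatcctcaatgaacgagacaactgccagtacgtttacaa
The longest run shared by any pair of probes of different members was 11 bases (Thbs1 and Fbln1), and the Thbs1 and Thbs2 probes shared at most 7.

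Across the 4 arrays, 29 of the 80 probe values of these genes were well above background. A further 29 were surrogates, the small values that the scanner software gives to spots it cannot tell from background. Of the 10 genes, 4 had a probe well above background in 3D of iHep-1, 3 in 3D of iHep-2, 4 in 2D of iHep-1 and 6 in 2D of iHep-2. Thbs1, Postn and Fbn1 had none on any array. Over all probes, 23061 to 24413 of 41174 were well above background per array. The 75th percentile of signal, to which each array was scaled, was 595 and 399 intensity units in 3D and 525 and 617 in 2D (iHep-1 and iHep-2). Levels are given as intensity units before scaling or as log2 units relative to that percentile after it. Higher and lower refer to a gene's place among all probes of its array, and fewer cells of a type and less RNA per cell cannot be told apart. The 4 arrays limit the precision.

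**Figure D1:**
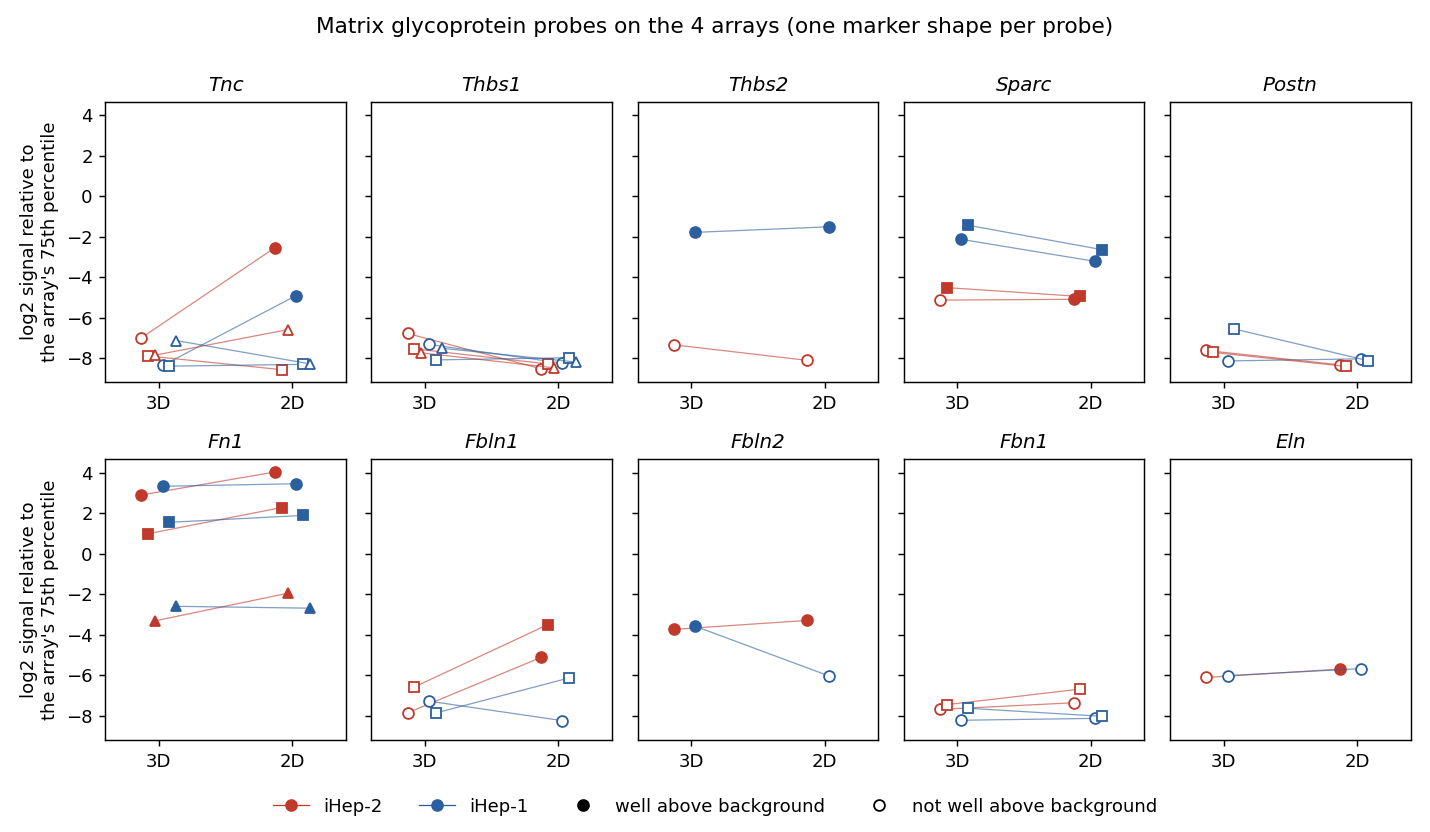
Log2 signal of every probe of the 10 genes, relative to each array's 75th percentile (y axis), in 3D and 2D culture (x axis). Lines join the 2 arrays of 1 experiment, marker shapes separate the probes of a gene, and open markers are not well above background. Fn1 is above background on all 4 arrays, Thbs2 only in iHep-1, and the tested Tnc probe only in 2D.

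The labelled cell type was checked first. All 8 hepatocyte markers (Alb, Apoa1, Apob, Ttr, Fgb, Tat, Cps1 and Cyp3a11) were well above background on all 4 arrays. Of 10 fibroblast markers, 7 were above background in 3D of iHep-1, 3 in 3D of iHep-2, and 4 in each 2D array, while Thy1, Dcn and Lum were above it on none. The summed scaled level of the fibroblast list was 8.14 and 7.84 in 3D and 4.95 and 4.97 in 2D, in units of the 75th percentile. Most of that sum was Pdgfra, at 4140 and 2989 intensity units in 3D and 2326 and 2938 in 2D. The part of this list in the culture differences below was not tested. All 5 cholangiocyte markers were above background on all 4 arrays. Of 6 stellate cell and pericyte markers, 3 (Des, Reln and Rgs5) were above background on no array. The same held for Pecam1, Kdr and Tek among 6 endothelial markers, and for Ptprc and Clec4f among 5 macrophage markers. Acta2 of the first list, Stab2 and Lyve1 of the second and Cd68 of the third were above background on all 4 arrays. Cdh5, an endothelial marker, was above it in 2D only. Lrat, Pdgfrb, Adgre1 and Csf1r were above it on some arrays. Acta2 gave 1911 and 1494 intensity units in 3D and 1830 and 2861 in 2D. The summed scaled level of the stellate cell and pericyte list was 3.58 and 3.78 in 3D and 4.14 and 4.72 in 2D. Summed scaled levels were 0.241 and 0.232 in 3D and 0.259 and 0.225 in 2D for the endothelial list, and 0.156 and 0.0846 in 3D and 0.0834 and 0.162 in 2D for the macrophage list.

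The question of the 3D with 2D comparison is how gene expression of these cells depended on culture. By limma with Benjamini-Hochberg adjustment, 0 of the 5 tested members were called higher and 0 lower in 3D, where 0% of all tested genes were called in either direction. Experiment was not a term in this fit, so differences between experiments add to the SE values between cultures below. Values with experiment as a block are given with the processing alternatives. Without adjustment, 1159 genes (7.05%) had a p under 0.05, and 1 member, Tnc, was among them. When arrays were scaled to spike-in controls, the median difference over all genes was -1.14 log2 units. That fit called 280 of all 16451 tested genes (67 higher and 213 lower), 1 member (Tnc) among them. All genes shared 1 variance in it, and Tnc had passed the filter only through the 2D arrays, so little weight is put on this call.

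Fn1 was the only one of these genes whose probes were all well above background on every array. By the probe with 10 spots, Fn1 gave 5984 intensity units in 3D of iHep-1 and 2982 in 3D of iHep-2, against 5760 and 10121 in 2D. The scaled level averaged 3.12 ± 0.30 log2 units in 3D and 3.75 ± 0.41 in 2D (SD, n = 2 arrays each). On the scaled level of this probe both 3D arrays were below both 2D arrays. The unscaled intensities overlapped, as did the scaled values of the upstream probe given below. The share of all tested genes with such an order was not counted, so no weight is put on it. The difference was -0.63 ± 0.34 (SE; adjusted p = 0.706, limma), made up of -0.13 in iHep-1 and -1.14 in iHep-2. Spots of this probe on 1 array scattered with an SD of 0.046 to 0.067 log2 units.

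The other Fn1 probes gave values of the same pattern in iHep-2. The probe at chr1:71644127-71644186 gave 1745 and 791 intensity units in 3D and 1948 and 2998 in 2D, with scaled differences of -0.34 in iHep-1 and -1.29 in iHep-2. The upstream probe (chr1:71673888-71674646) gave 98.6 and 40.1 in 3D and 81.6 and 160 in 2D, with differences of 0.09 and -1.37. In iHep-2 all 3 probes were lower in 3D by more than 1 log2 unit, whereas in iHep-1 they lay within 0.34 of no difference. With spike-in scaling the tested probe differed by -1.93 in iHep-1 and -1.66 in iHep-2, so the contrast between experiments was not seen there. With 1 array per culture in each experiment, this contrast between iHep-2 and iHep-1 was not tested.

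Tnc encodes tenascin C, a large oligomeric glycoprotein of remodelling tissue. Its tested probe (chr4:63620819-63620864, minus strand, a span of 46 bases in the files for a probe of 60) gave 1.81 and 3.13 intensity units in 3D, against 17.5 and 106 in 2D. Both 2D arrays were well above background and neither 3D array was, and the level in 2D was higher in iHep-2 than in iHep-1. Tnc was at least 4.24-fold lower in 3D, a bound taken against the lowest signal well above background on each 3D array (difference of measured means -3.95 ± 1.04, SE; adjusted p = 0.684, limma). The difference was -3.45 in iHep-1 and -4.45 in iHep-2. This probe passed the filter only through the 2D arrays, so a difference was built into its being tested. Tnc was the only tested member at least 2-fold lower in 3D in both experiments, which held for 2.12% of tested genes. Of the tested members, 0 were at least 2-fold higher in both, as were 4.26% of tested genes. With spike-in scaling the difference was -5.12 (adjusted p = 0.000101, limma), and with normexp background correction, which adds an offset to every signal, it was -0.73.

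The other Tnc probes did not show the signal. The junction probe printed above gave 4.25 and 1.73 intensity units in 3D and 1.69 and 6.43 in 2D. A further probe, designed to another cDNA at chr4:63645878-63645937, stayed between 1.63 and 1.77 on all 4 arrays. Neither was well above background on any array. The culture difference of Tnc rests on 1 of 3 probes.

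Thbs2 encodes thrombospondin 2, which restrains vessel growth and shapes collagen fibrils. It gave 172 intensity units in 3D of iHep-1 and 2.47 in 3D of iHep-2, against 184 and 2.24 in 2D. The gene was well above background in both cultures of iHep-1 and in neither culture of iHep-2. The difference between cultures was 0.25 ± 3.23 log2 units (SE; adjusted p = 0.987, limma), with -0.27 in iHep-1 and 0.77 in iHep-2, where both values were not well above background. Its sign turned with spike-in scaling (-0.92). It also turned without 3D replicate 1 (-2.53) and without 2D replicate 2 (-3.05), again with the experiments unbalanced.

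Sparc encodes a collagen-binding glycoprotein, also called osteonectin. Its brighter probe gave 220 and 17.5 intensity units in 3D and 84.4 and 19.9 in 2D. The cultures overlapped, since iHep-1 was above iHep-2 in each of them. The difference between cultures was 0.82 ± 1.45 (SE; adjusted p = 0.899, limma), with 1.20 in iHep-1 and 0.44 in iHep-2. It turned to -0.35 with spike-in scaling. Leaving out 3D replicate 1 gave -0.72 and leaving out 2D replicate 2 gave -0.34, where the experiments are no longer balanced and their own difference enters. The other Sparc probe (chr11:55208013-55208072) gave 136 and 11.4 in 3D and 56.4 and 18.1 in 2D, with differences of 1.08 and -0.04.

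Thbs1 and Postn gave no signal well above background. The 3 probes of Thbs1, thrombospondin 1, ranged from 1.88 to 3.73 intensity units in 3D and from 1.68 to 2.08 in 2D. Postn, which encodes periostin, gave 6.33 and 1.90 in 3D and 1.89 and 1.82 in 2D by its named probe, and 2.12 and 2.03 in 3D and 2.01 and 1.92 in 2D by a probe listed under the older name A630052E07Rik. No fold is given for these genes.

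Among elastic fibre genes, Fbln1 and Fbln2 had signal on some arrays. Fbln1 encodes fibulin 1, and its probes gave 2.56 and 4.18 intensity units in 3D and 7.51 and 54.6 in 2D (chr15:85115998-85116057), and 3.84 and 1.73 in 3D and 1.74 and 17.8 in 2D (chr15:85115854-85115914). By both probes Fbln1 was well above background only in 2D of iHep-2, so it was not tested. Fbln2, a basement membrane and elastic fibre protein, gave 49.9 and 30.0 intensity units in 3D and 8.06 and 63.1 in 2D, and was not well above background in 2D of iHep-1 only. Its cultures overlapped, and the difference was 1.002 ± 1.04 (SE; adjusted p = 0.814, limma), with 2.45 in iHep-1 and -0.44 in iHep-2. It turned to -0.37 without 2D replicate 1 and to -0.16 with spike-in scaling.

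The structural proteins of elastic fibres were at or near background. The probe of Eln, elastin, gave 9.22 and 5.80 intensity units in 3D and 10.3 and 11.9 in 2D, with only 2D of iHep-2 well above background. The Fbn1 probes, for fibrillin 1, gave 1.95 to 3.01 intensity units in 3D and 1.88 to 6.02 in 2D. Neither gene was tested.

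Of the 5 tested members, 2 (Tnc and Fn1) were lower in 3D in both experiments, 1 (Sparc) was higher in both and 2 had opposite signs. Over all tested genes these shares were 32.8%, 33.3% and 33.8%. With spike-in scaling 3 members, Sparc now among them, were lower in both experiments and 0 higher, beside 73.6% and 2.54% of all tested genes. The median of the members' mean differences was 0.25 and their mean was -0.50, while the medians within iHep-1 and iHep-2 were -0.13 and -0.44, so the sign of the median depended on how it was taken. The median over all tested genes was 0.02. The members' median ran from -0.85 without 3D replicate 1 to 1.08 without 3D replicate 2.

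**Figure D2:**
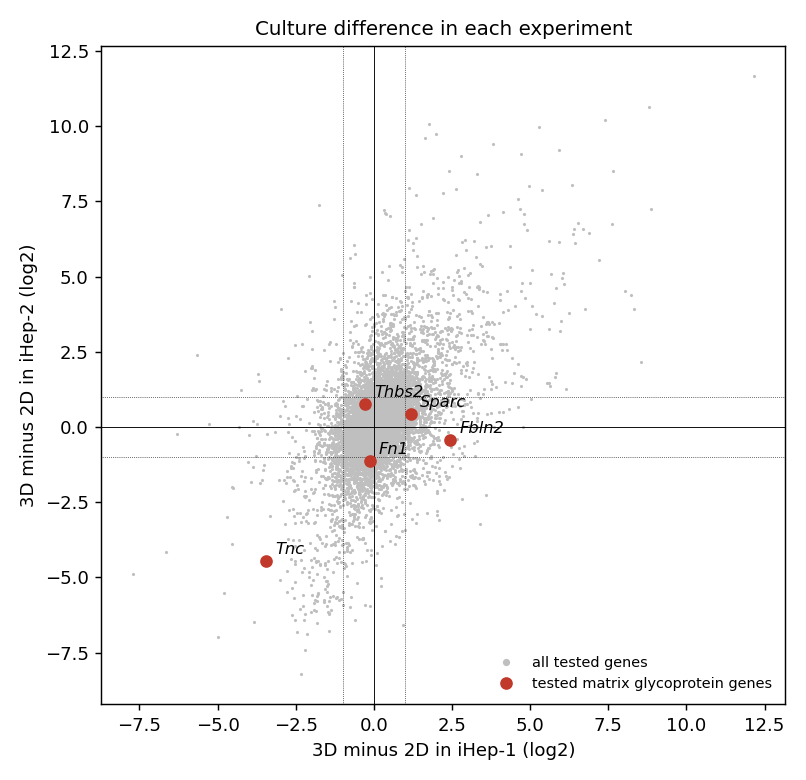
Difference between 3D and 2D in iHep-1 (x axis) and iHep-2 (y axis), both in log2 units, for all 16451 tested genes (grey) and the 5 tested matrix glycoprotein genes (red). Dotted lines mark 2-fold differences. Tnc lies at the lower left, at -3.45 and -4.45, and Fbln2 at the right, at 2.45 and -0.44.

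The arrays also allow the 2 experiments to be compared, with culture in the fit. By limma, 305 of 16451 genes (1.85%) differed between iHep-2 and iHep-1 at an adjusted p under 0.05, and 1 of the 5 tested members, Thbs2, was among them. Thbs2 gave 2.47 and 2.24 intensity units in iHep-2 (3D and 2D), against 172 and 184 in iHep-1. Thbs2 was at least 18.9-fold lower in iHep-2, with the iHep-2 level set at the lowest signal well above background. The difference of measured means was -6.07 ± 0.36 (SE, adjusted p = 0.0403, limma). It was -5.55 in 3D and -6.59 in 2D. Thbs2 passed the filter only through the iHep-1 arrays, so a difference was built into its being tested. Both iHep-2 values were surrogates, and the SE and adjusted p rest on them. Without any filter the adjusted p was 0.0151 (limma), from the same surrogate values. Its adjusted p ran from 2.15e-10 to 0.0437 over the alternatives (limma), with a difference of -1.55 under normexp correction. The smallest came with spike-in scaling, where all genes shared 1 variance.

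Sparc was also lower in iHep-2 in both cultures. It gave 17.5 and 19.9 intensity units in iHep-2 (3D and 2D), against 220 and 84.4 in iHep-1. The difference was -2.70 ± 0.31 (SE), with -3.08 in 3D and -2.31 in 2D, and did not pass the threshold (adjusted p = 0.0662, limma), although it did with spike-in scaling (adjusted p = 0.0411). Tnc differed the other way, by 1.36 in 3D, from values at background, and by 2.36 in 2D (mean 1.86 ± 0.35, SE; adjusted p = 0.131). The 2 tested members lower in iHep-2 in both cultures, against 33.5% of all tested genes, were Thbs2 and Sparc. Tnc was the 1 tested member with higher measured values in both, against 30% of all tested genes. Thbs2 and Sparc were lower by at least 2-fold in both cultures, as were 5.74% of all tested genes, while 5.12% were higher by that much in both. The measured Tnc values also passed that size in both, but the 3D values are both at background, so no fold is given there. Fn1 did not separate the experiments, with -0.43 in 3D and 0.58 in 2D (adjusted p = 0.947), and Fbln2 gave -0.16 and 2.74 (adjusted p = 0.549).

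Markers of other cell types also had different levels in the 2 experiments, in both directions. Among stellate cell and pericyte markers, Lrat gave 5.51 and 4.49 intensity units in iHep-2 (3D and 2D), against 57.4 and 52.1 in iHep-1. Pdgfrb gave 1.77 and 27.5 in iHep-2, against 152 and 282 in iHep-1. The scaled level of Acta2 went the other way, at 1.90 and 2.21 log2 units in iHep-2, against 1.68 and 1.80 in iHep-1. Of the 6 markers of that list, 1 and 2 were above background in iHep-2, against 3 and 3 in iHep-1, and the summed scaled level was 3.78 and 4.72 in iHep-2 and 3.58 and 4.14 in iHep-1. Of the 10 fibroblast markers, 3 and 4 were above background in iHep-2, against 7 and 4 in iHep-1, and the summed scaled level was 7.84 and 4.97 in iHep-2 and 8.14 and 4.95 in iHep-1. Pdgfra was at 2.91 and 2.25 log2 units in iHep-2, against 2.80 and 2.15 in iHep-1. The mesenchymal transcription factor Prrx1 gave 76.8 and 37.1 in iHep-2, against 455 and 204 in iHep-1. The fibroblast collagen Col1a1 was above background only in 3D of iHep-1, at 66.8. Twist2, also of the fibroblast list, gave 6.80 and 21.8 in iHep-2, against 9.98 and 9.26 in iHep-1. Its 3D array of iHep-2 was not well above background. The cholangiocyte list summed to 30.1 and 46.7 scaled units in iHep-2, against 25.3 and 16.0 in iHep-1. Spp1 of that list went the other way in 3D, at 839 intensity units in iHep-2, against 7164 in iHep-1. The part of these cells in the Thbs2 and Sparc differences was not tested.

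**Figure D3:**
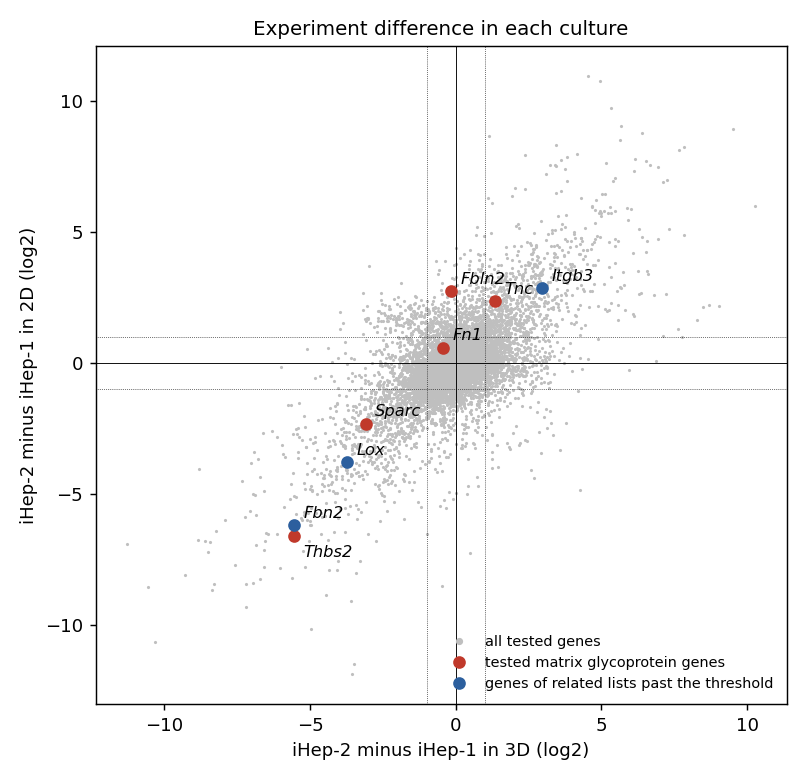
Difference between iHep-2 and iHep-1 in 3D (x axis) and in 2D (y axis), both in log2 units, for all 16451 tested genes (grey), the 5 tested matrix glycoprotein genes (red) and the genes of related lists past the adjusted threshold (blue). Thbs2 lies beside Fbn2 at the lower left, and Fn1 lies near the centre.

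The wider families were described with 4 gene lists. Among 18 tested of 24 elastic fibre and microfibril genes, 0 were called between cultures. Of the elastic fibre genes, 5 were lower and 8 higher in 3D in both experiments, or 14 and 0 with spike-in scaling, and the median difference was 0.03. Over all tested genes 32.8% were lower and 33.3% higher in both experiments, or 73.6% and 2.54% with spike-in scaling. Loxl2, a lysyl oxidase that cross-links collagen and elastin, differed by -1.92 in iHep-1 and -2.16 in iHep-2. Emilin2, a microfibril-associated glycoprotein, differed by -0.96 and -2.32. Ltbp2, a fibrillin-binding protein, differed by 0.72 and 1.34, with 2D of iHep-1 not well above background, and its iHep-1 value turned to -1.08 with spike-in scaling. Efemp1 and Ltbp3 had the highest signal of the list. Efemp1, fibulin 3, differed by 0.16 and -1.01, and Ltbp3, which binds latent TGF-beta, by 0.16 and 0.42; with spike-in scaling both were lower in 3D in both experiments (-1.64 and -1.54 for Efemp1, -1.64 and -0.11 for Ltbp3).

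Between experiments, 2 genes of this elastic fibre list were called lower in iHep-2 and 0 higher by limma, where 0.985% of all tested genes were called lower. Fbn2, the fibrillin of developing tissue, gave 1.73 and 4.91 intensity units in iHep-2 (3D and 2D), against 120 and 303 in iHep-1, at least 20.3-fold lower in iHep-2 (adjusted p = 0.0400, limma). Lox, the founding lysyl oxidase, gave 1.81 and 1.71 in iHep-2, against 35.5 and 19.9 in iHep-1, at least 2.83-fold lower (adjusted p = 0.0403); it was named after its values were seen. Both were above background on the iHep-1 arrays only, as Thbs2 was, so they passed the filter only through iHep-1. With no filter the adjusted p was 0.0151 for Fbn2 and 0.0202 for Lox (limma), from the same iHep-2 values, which were not well above background. Both missed the threshold under normexp (0.0795 for Fbn2 and 0.569 for Lox) and without the culture term (0.0747 and 0.0719). In all, 6 of the 18 tested genes were at least 2-fold lower in iHep-2 in both cultures, where 5.74% of all tested genes were, and 2 at least 2-fold higher, where 5.12% were. Of those 6, 4 were above background in iHep-1 only and had to be lower in iHep-2.

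Among 17 tested of 23 other matricellular genes, 0 were called between cultures. Of the 17, 5 were lower and 7 higher in 3D in both experiments, as were 32.8% and 33.3% of all tested genes. By at least 2-fold, 2 were lower and 4 higher in both, as were 2.12% and 4.26% of all tested genes. The median difference was 1.27 and the mean 0.32, while the medians within iHep-1 and iHep-2 were -0.08 and 1.46. With spike-in scaling 7 of the 17 (41.2%) were lower and 0 higher in both, beside the 73.6% and 2.54% of all tested genes given above. Ccn2, also called connective tissue growth factor, gave 1475 and 2506 intensity units in 3D, against 4535 and 29214 in 2D (adjusted p = 0.690). Igfbp7, a secreted binding protein of insulin-like growth factors, differed by -1.21 and -1.92. Thbs3, a thrombospondin of the pentameric class, gave 806 and 595 in 3D, against 246 and 293 in 2D, with differences of 1.53 and 1.65 that were -0.27 and 1.12 with spike-in scaling. Tnr, tenascin R, was well above background in 3D only, through which it passed the filter, and was at least 3.64-fold higher there. Its measured iHep-1 difference, taken against a background value, was 1.36, or -0.44 with spike-in scaling. Vtn, vitronectin, an adhesive plasma glycoprotein made by hepatocytes, had high signal on all arrays and differed by -0.21 and 1.13, or -2.01 and 0.60 with spike-in scaling.

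Among receptors of these glycoproteins, 13 of 16 were tested and 0 were called between cultures, with a median difference of -0.08. Of the 13 tested, 5 were lower and 3 higher in 3D in both experiments, beside 32.8% and 33.3% of all tested genes. With spike-in scaling 10 (76.9%) were lower and 1 (7.69%) higher, beside 73.6% and 2.54% of all tested genes. Itgb1, the integrin beta chain shared by fibronectin and tenascin receptors, gave 1594 and 949 intensity units in 3D and 2000 and 2561 in 2D, with differences of -0.51 and -0.81. Cd36, a receptor of thrombospondins and of lipids, differed by 5.62 and 1.35. Lrp1, an endocytic receptor, differed by 0.62 and 0.65, the first of which turned to -1.18 with spike-in scaling. Itgb5 and Sdc4 had the highest signal of the list. Itgb5 differed by -0.29 and 0.36 (-2.09 and -0.17 with spike-in scaling), and Sdc4, a heparan sulphate proteoglycan that binds fibronectin, by -0.14 and -0.30. Itgb3, a beta chain that pairs with the alpha v chain to bind vitronectin and fibronectin, differed by -0.72 and -0.59 between cultures; the mean over its probes gave 0.15. Itgb3 was higher in iHep-2, at 3298 and 7681 intensity units (3D and 2D), against 626 and 909 in iHep-1 (adjusted p = 0.0447, limma). It was the only 1 of 13 tested receptors called in that comparison, where 1.85% of all tested genes were called in either direction. It missed the threshold with the mean of probes (0.0585) and without the culture term (0.0955).

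TGF-beta ligands induce many matrix genes. Among 12 genes of TGF-beta ligands, receptors and mediators, 11 were tested and 0 were called between cultures, with a median difference of -0.12. Of the 11 tested, 2 were lower and 1 higher in 3D in both experiments, beside 32.8% and 33.3% of all tested genes. With spike-in scaling 9 (81.8%) were lower and 0 higher, near the 73.6% and 2.54% of all tested genes. Tgfb2, a ligand, gave 18.1 and 4.10 intensity units in 3D, against 66.3 and 91.2 in 2D, with 3D of iHep-2 not well above background. Its measured differences were -2.05 and -3.85 (adjusted p = 0.684), the second against a background value. Tgfbr2, a receptor chain, differed by -0.08 and -0.49, Smad4, the shared mediator, by 0.01 and -0.59 (-1.79 and -1.12 with spike-in scaling), and Smad7, an inhibitor, by 0.20 and 0.45, or -1.60 and -0.08 with spike-in scaling.

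**Figure D4:**
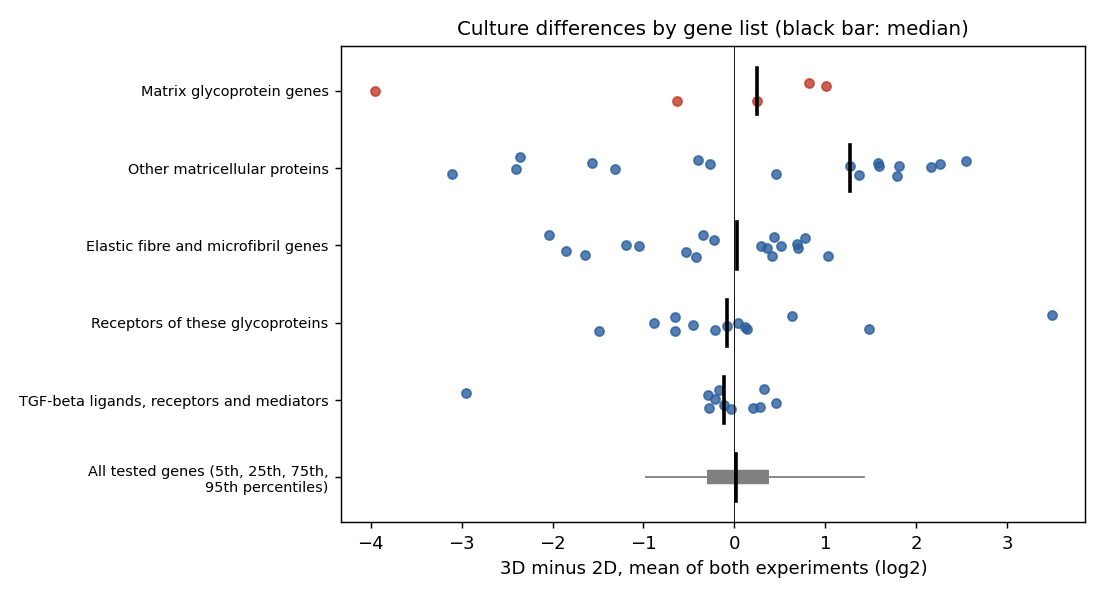
Difference between 3D and 2D, as the mean of both experiments in log2 units (x axis), for each tested gene of the matrix glycoprotein group (red) and of 4 related lists (blue), with list medians as black bars. The grey line and box span the 5th to 95th and 25th to 75th percentiles of all tested genes, -0.97 to 1.43 and -0.30 to 0.38. Tnc at -3.95 is the lowest point shown.

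Genes with the most similar profile over the 4 arrays were found by the root mean square distance between centred log2 values. For Tnc they were Socs2 (0.29 log2 units), Atf7ip2 (0.34) and Myt1 (0.44). For Fn1 they were Strn (0.0273), Fubp1 (0.0275) and Polh (0.0379). For Sparc they were Def6 (0.11), C230094B09Rik (0.12) and Tmtc1 (0.13). With 4 arrays and 16451 genes, close profiles of this kind describe the arrays only.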

How the data were processed

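Total RNA of each sample was amplified, labelled with Cy3 and hybridised to its own 1-colour Agilent array (design 014868), per the labels' protocols and the file headers. All 4 arrays shared 1 slide and 1 scan time. The authors deposited scanner files with linear spot intensity values, background-corrected by Agilent Feature Extraction (9.5.1.1 per the submitters' processing notes, 10.7.1.1 per the file headers), and a series table of linear intensity values by a normalization that the labels do not state. The table's medians were 26.3 for both iHep-1 arrays and 22.6 for both iHep-2 arrays, and the table's values rank as the scanner's processed signals do. Probe positions are those of mm9 in the files.

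For this work, log2 of the processed signal minus each array's 75th percentile was used, outlier spots (72 to 85 per array) were left out, and spots of a probe were averaged; no spot was saturated. Names came from RefSeq (GRCm38.p6, names only): 24844 probes by accession, 6045 by symbol, 1810 by an older symbol, and 8475 kept the file's name. Probes well above background on at least 2 arrays were kept, the brightest per gene. Two-sided tests between cultures used lmFit and eBayes of limma 3.58.1 (R 4.3.3), Benjamini-Hochberg adjustment over all tested genes and a threshold of 0.05, and experiments with culture as a term; the step was tested on simulated data. Same-numbered arrays of both cultures come from 1 experiment by the design text and are therefore paired (r = 0.66 between deviations of same-numbered arrays). A bound uses the bright group's mean and, for the dim group, the lowest signal well above background on each array, or the probe's own signal where that is higher. Members and lists were chosen with earlier results of these data known. Named genes are all members, up to 4 genes per list with the largest difference shared by both experiments, and up to 2 of the highest signal. Alternatives were normexp (offset 50), quantile and spike-in scaling (6 control probes), the authors' table, other filters, mean of probes, the experiment block, and leaving out each array.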

Additional observations from a re-analysis of the deposited data

Results flagged for a closer look

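Fbln2 and Thbs2 had culture differences of opposite sign in the 2 experiments. Fbln2 differed between 3D and 2D by 2.45 in iHep-1 and by -0.44 in iHep-2; its 2D array of iHep-1 was not well above background. Thbs2 differed by -0.27 in iHep-1 and by 0.77 in iHep-2, where neither array was well above background. With 1 array per culture in each experiment, neither difference between experiments was tested, and opposite signs held for 33.8% of all tested genes.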

How the results depend on the processing

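With 2 arrays per culture, 9 of the 20 probes never well above background, and 2 residual degrees of freedom, small differences were not detectable. Spike-in scaling moved every difference between 3D and 2D by -1.80 log2 units in iHep-1 and -0.53 in iHep-2. With it 280 genes were called between cultures, the members' median was -0.92, Tnc passed the threshold (-5.12), and the differences of Thbs2 (-0.92), Sparc (-0.35) and Fbln2 (-0.16) turned negative; Sparc passed between experiments (-2.58). In that fit limma's prior degrees of freedom were infinite, so all genes shared 1 variance. The cause of these changes was not tested.

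The numbers pair the arrays: with the replicate block 0 genes were called between cultures (smallest adjusted p = 0.125 by limma, 2175 genes at an unadjusted p under 0.05), and 19 with the block and a trended, robust prior, 0 of them members. The block changed no member's call, but it changed the SE of most. With it the SE of the culture difference was 0.35 for Tnc, 0.36 for Thbs2, 0.31 for Sparc, 0.36 for Fn1 and 0.83 for Fbln2. The adjusted p values were then 0.195, 0.767, 0.399, 0.489 and 0.605 in the same order (limma). All other alternatives, leaving out each array included, called 0 genes between cultures. Members lower in 3D in both experiments numbered 3 with spike-in scaling and 4 with no filter on 10 members. They numbered 1 when all 4 arrays had to be above background, which left 2 members tested. Leaving out 1 array, the members' median ran from -0.85 to 1.08 and Thbs2 from -3.05 to 3.54. Sparc ran from -0.72 to 2.36 and Fbln2 from -0.37 to 2.37, so all of these could change sign. These fits have no block and unbalanced experiments, so the difference between experiments enters them. Within iHep-1 and iHep-2 the tested Sparc probe differed by 1.20 and 0.44, but by -0.60 and -0.09 with spike-in scaling. The other Sparc probe differed by 1.08 and -0.04. Tnc stayed between -5.13 and -2.77 and Fn1 between -0.92 and -0.34.

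Genes called between iHep-2 and iHep-1 numbered 686 with normexp, 807 with spike-in scaling, 141 when all 4 arrays had to be above background, 493 with no filter, 54 without the culture term and 570 with a trended, robust prior. Fn1 between experiments turned to -0.063 with the authors' table and -0.00056 with the mean of probes. Of the values of other named genes, 291 moved by less than the spread between arrays and 92 by more. Counts of members lower in both experiments, and the comparison of experiments, could not be computed with 1 array left out.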

Other observations

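Comp, Thbs4 and Smoc1, chosen after their values were seen for being higher in 3D in both experiments, are given as values only. Comp, the cartilage oligomeric member of the thrombospondin family, gave 12568 and 1413 intensity units in 3D (iHep-1 and iHep-2), against 7257 and 272 in 2D. Thbs4 gave 899.7 and 96.4 in 3D, against 484 and 20.4 in 2D. In both genes iHep-1 was brighter than iHep-2 in each culture, and the adjusted p was 0.834 for Comp and 0.832 for Thbs4 (limma, 3D against 2D). The iHep-1 differences of 0.61 for Comp and 0.71 for Thbs4 turned to -1.19 and -1.09 with spike-in scaling. Smoc1, a calcium-binding relative of Sparc, gave 169 and 13.3 in 3D, against 67.3 and 1.98 in 2D, where iHep-2 was not well above background (adjusted p = 0.811, limma). Its iHep-1 difference of 1.15 turned to -0.66 with spike-in scaling. Measured differences of other SPARC relatives were -1.26 in iHep-1 and 3.999 in iHep-2 for Smoc2, and -1.04 and 0.51 for Spock2. They were -0.14 and 4.45 for Spock3, and -0.08 and -0.72 for Fstl1. Not well above background were Smoc2 in 2D of iHep-2, Spock2 in 3D of iHep-1, and Spock3 in both cultures of iHep-1. The differences that use these arrays are therefore taken against background values.

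Ccn4, a matricellular relative of Ccn2 also named after its values were seen, gave 100.2 and 1.98 intensity units in 3D, against 108 and 184 in 2D. It was well above background on every array but 3D of iHep-2, and the adjusted p was 0.723 (limma).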
